A study of Mus musculus with 24 samples.

Results

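The genes described here are 9 mouse neurotrophic factors and receptors, measured by bulk RNA sequencing of dental mesenchyme, the neural crest-derived tissue of the tooth germ that forms the pulp and dentin. They were taken by name as members of the neurotrophin family and the GDNF family in view of the innervation of the tooth. They are 9 of the 56748 genes in the deposited count table, of which 56017 could be given a symbol. The ligands are Bdnf, Ntf3, Gdnf and Nrtn. The receptors are Ntrk2, Ngfr, Gfra1, Gfra2 and Ret. Each symbol matched a single gene identifier, and all 9 genes had enough counts to be tested in every comparison.

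Neurotrophic factors are secreted proteins that keep neurons alive and guide the growth of their axons. BDNF, the product of Bdnf, binds the receptor tyrosine kinase TrkB, the product of Ntrk2. Neurotrophin-3, the product of Ntf3, prefers the related kinase TrkC. The p75 receptor, the product of Ngfr, binds all neurotrophins and is also carried by neural crest cells, Schwann cell precursors and some mesenchymal cells. In the other family, GDNF binds mainly the membrane-anchored receptor GFRa1 and neurturin, the product of Nrtn, binds mainly GFRa2, and both complexes signal through the kinase Ret. Dental mesenchyme is known to produce neurotrophic factors, and the trigeminal nerve fibers that will supply the tooth reach the surroundings of the germ before they enter the pulp. The counts are per gene, so they do not separate full-length TrkB from its truncated forms, which come from the same gene.

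The study compared dental mesenchyme of ICR mouse embryos between stages, between the lingual (tongue) side and the buccal (cheek) side of the tooth germ, and before and after culture. Germs of the first mandibular molar were taken at embryonic day 13, called the cap stage, and at embryonic day 15, called the bell stage, the epithelium was removed with dispase II, and RNA was extracted from the mesenchyme. Cap-W and Bell-W are mesenchyme labelled as whole germ, Cap-L, Cap-B, Bell-L and Bell-B are mesenchyme of the lingual (L) or buccal (B) part after the germ was divided with a needle, and the suffix +2D marks cap-stage parts kept in vitro for 2 days. All 8 groups hold 3 libraries, 24 in all, of unmodified animals, with no drug or transgene, and the tissue came from several embryos that are not assigned to libraries in the sources used here. The sex of the embryos is not given in the sources used here. The methods mention triplicate sequencing and also a smaller number of biological replicates, without saying which libraries came from separate pools. Some libraries of a group may therefore share their tissue, and every p-value measures the spread between these libraries, which may be technical.

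The libraries held between 20581720 and 39266497 counted fragments, with a median of 27677163. All 7 markers of dental mesenchyme that were examined were present, with a summed level of 1872 to 3791 normalized CPM per library, where normalized CPM is the usual depth-scaled count, with TMM factors over the 24 libraries. Markers of other cell types were also detected. Skeletal muscle genes summed to 15.0–16.7 normalized CPM in Cap-L and to 204–215 in Cap-B, to 99.1–106 in Bell-L and 737–745 in Bell-B, and to 219–231 in Cap-L+2D and 2824–2925 in Cap-B+2D. In undivided mesenchyme they summed to 12.7–17.1 in Cap-W and 7.50–14.3 in Bell-W. The Bell-W library 3 stood apart, with summed neuron markers of 141 normalized CPM against 24.5 and 26.5 in the other Bell-W libraries, and epithelial markers of 2052 against 467 and 553. In Cap-W library 1, the ribosomal gene Rn18s-rs5 took 5.39% of the counts, against at most 1.43% in any other library. Within groups, Cap-W library 1 differed most, with a chi-square per gene of 161 and 124 against libraries 2 and 3. Bell-W library 3 followed, with 61.8 and 55.0 against libraries 1 and 2. Cap-W libraries 2 and 3 differed by 7.89 and Bell-W libraries 1 and 2 by 12.8. Within the 6 groups of parts the value was at most 9.84. A count of 3 in a library, taken as the floor of detection, corresponds to 0.0764 to 0.146 CPM depending on depth, and covers counting error only.

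Levels were also scaled as normalized CPM per kilobase of exon, where the length merges the exons of all transcripts of a gene. The scale is therefore only a rough guide between genes. On it, the medians of 3 of the 5 receptor genes stood above that of every ligand gene. Over the group means, Gfra2 ran from 11.3 to 50.1 per kilobase, with a median of 24.8. Ngfr ran from 8.32 to 38.3, with a median of 24.6. Ntrk2 followed, with group means from 2.60 to 17.9 and a median of 8.39. The highest of the ligands on this scale was Ntf3, from 2.16 to 9.62 with a median of 4.64. Ret was the lowest of the 9 by its median of 0.531, with group means of 0.367 to 1.54. The co-receptor Gfra2 thus exceeded the kinase it signals through in every library, by a ratio per kilobase of 4.35 to 136 with a median of 49.9. The ratio of Gfra1 to Ret per kilobase ran from 0.510 to 18.2, with a median of 6.61, and fell below 1 only in Cap-W, where the median was 0.967. Ngfr exceeded Ntrk2 per kilobase in all groups but Cap-B, where the libraries lay between 0.947 and 1.12. This order depends on the merged exon length, which is 19292 bases for Ntrk2 and 3446 for Ngfr. On normalized CPM without the length, Ngfr had the higher mean only in Cap-W (77.4 against 50.2) and Cap-L (114 against 82.7). Ntrk2 had the higher mean in all other groups.

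**Figure D1:**
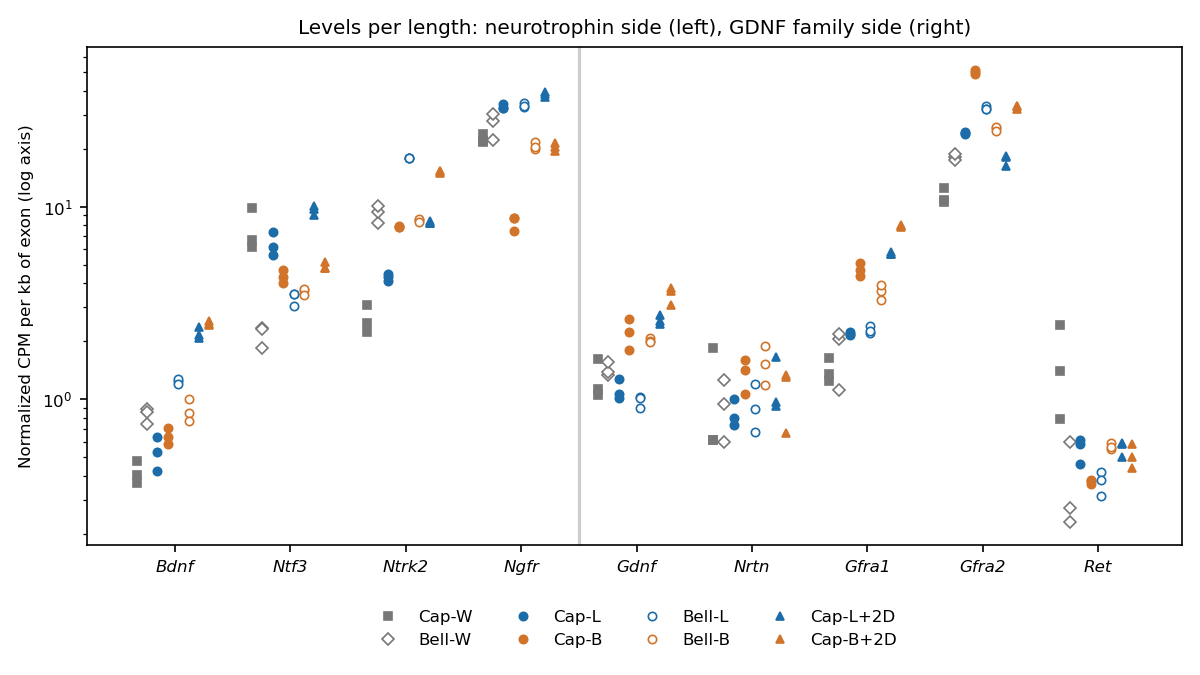
Normalized CPM per kilobase of exon (log axis) of the 9 genes in each of the 24 libraries, with the neurotrophin genes on the left and the GDNF family on the right. Marker shape and fill give stage and culture and color gives the part; by the median of the group means Gfra2 and Ngfr sit highest and Ret lowest, but Ret stands higher in Cap-W (squares) than in the other groups, with a mean of 1.54 there that is above those of Bdnf, Nrtn, Gdnf and Gfra1.

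Levels of single genes are given below as normalized CPM, in the order of libraries 1, 2 and 3 of a group. The order of the groups differed from gene to gene. Ntrk2 spanned the widest range, 6.88-fold between its lowest group mean in Cap-W and its highest in Bell-L. Bdnf spanned 5.98-fold, from Cap-W to Cap-B+2D, and Gfra1 spanned 5.62-fold between the same groups. The range was 4.60-fold for Ngfr, 4.45-fold for Ntf3, 4.42-fold for Gfra2, 4.21-fold for Ret and 3.56-fold for Gdnf. For Nrtn it was 1.81-fold, and the libraries of every pair of neighboring groups in its order overlapped, so that no order can be given. In the order of Bdnf the cultured parts came first, then Bell-L, then Bell-B and Bell-W, which overlapped each other, and last the 3 fresh cap-stage groups, each overlapping the next. For Ntf3 the groups Cap-L+2D, Cap-W and Cap-L led and overlapped, Cap-B+2D and Cap-B followed apart from each other, Bell-B and Bell-L overlapped, and Bell-W was lowest. For Gdnf only Cap-B+2D stood apart at the top, Cap-L+2D, Cap-B and Bell-B overlapped in sequence, and so did Bell-W, Cap-W, Cap-L and Bell-L below them. The overlapping neighbors were Cap-B+2D with Bell-L and Bell-W with Cap-L+2D for Gfra2, and Bell-L with Cap-L, Bell-W with Cap-W and Bell-B with Cap-B+2D for Ngfr. For Ntrk2 the neighbors Bell-W, Bell-B and Cap-L+2D overlapped and all others did not. For Gfra1 the 4 groups Cap-B+2D, Cap-L+2D, Cap-B and Bell-B descended without overlap, while Bell-L, Cap-L, Bell-W and Cap-W followed, each overlapping the next. For Ret the libraries of Cap-W stood above those of Bell-B without overlap, and most of the other groups overlapped their neighbors.

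**Figure D2:**
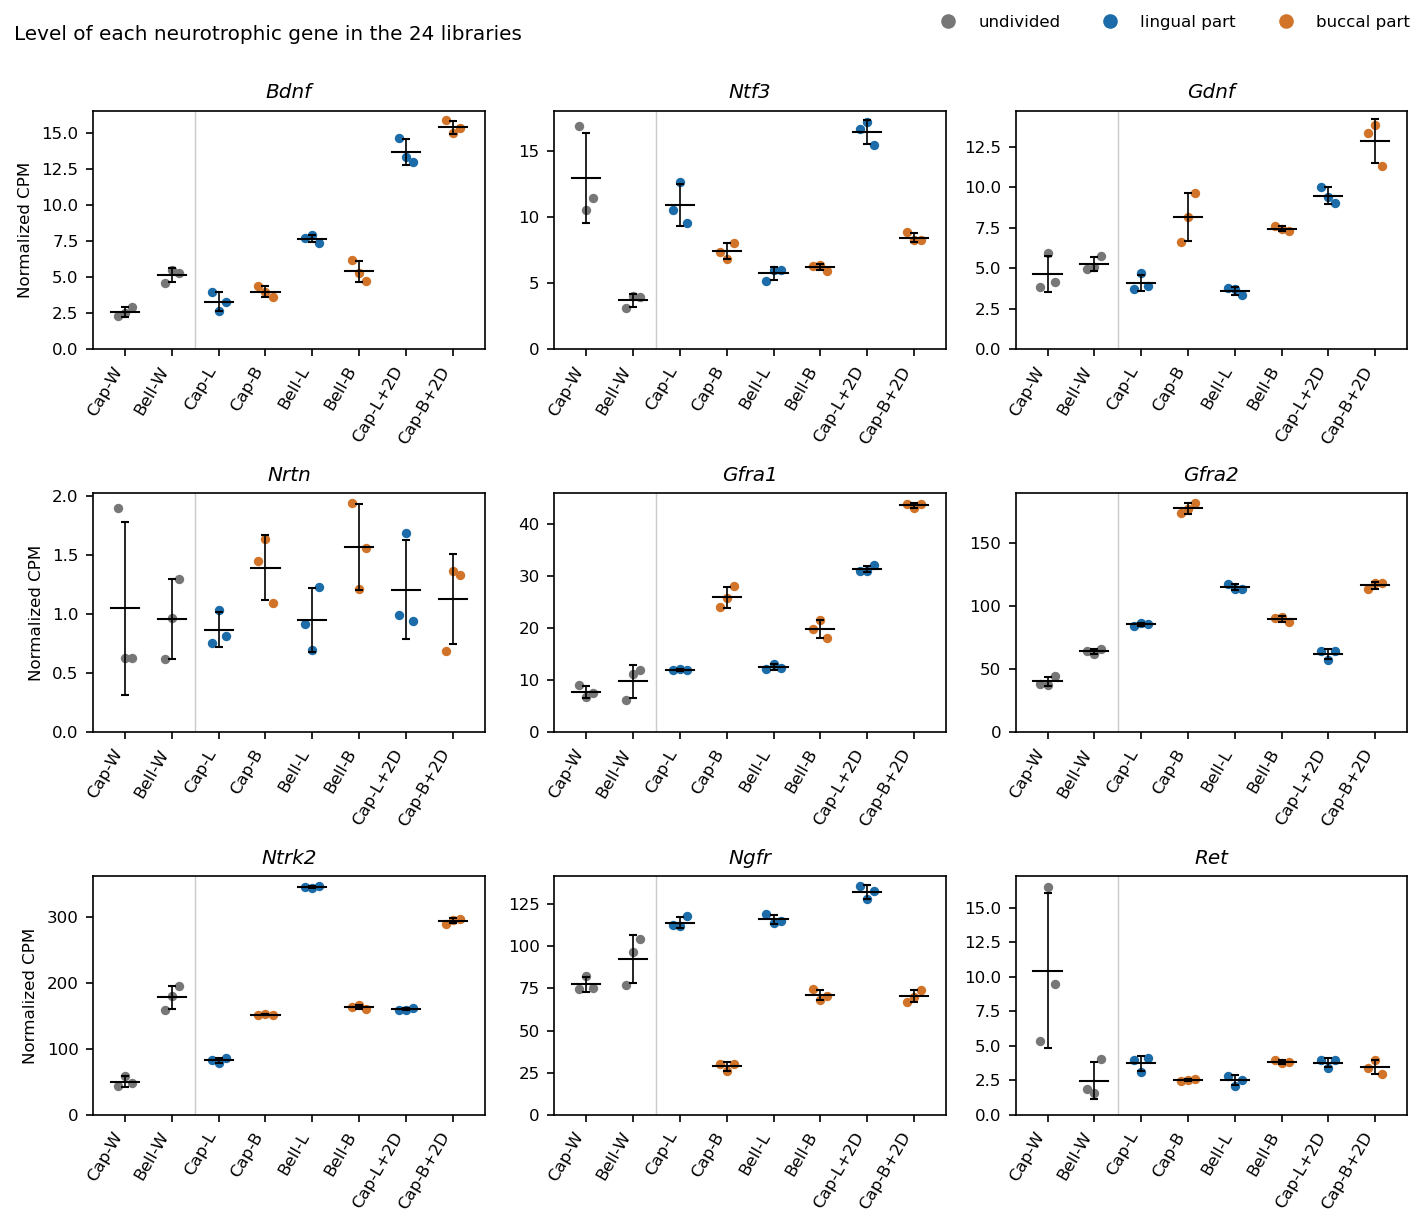
Normalized CPM (vertical axis, linear, from 0, scaled separately for each gene) of the 9 genes in the 8 groups, with points for libraries, a bar for the mean and whiskers for 1 SD (n = 3). Bdnf, Gdnf and Gfra1 are highest in the cultured parts, Ntrk2 is highest in Bell-L, Ngfr is lowest in Cap-B, and the 3 Cap-W libraries spread widely for Ret.

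The comparison of Cap-L with Cap-B asks whether the lingual and buccal sides of the cap-stage germ differ. Gfra1, Gfra2, Gdnf, Nrtn and Ntrk2 were higher on the buccal side, whereas Ngfr, Ntf3 and Ret were higher on the lingual side. At the cap stage 8 of the 9 genes passed the test, against 17.5% of the 20653 genes tested. Of these, 5 were higher in the buccal part, as were 10.4% of all genes, and 3 were higher in the lingual part, as were 7.1%. The libraries of the sides did not overlap for the same 8 genes, as for 52.4% of all. A call here and below means an adjusted p under 0.05 in edgeR's quasi-likelihood test and a log2 fold change beyond 0.5 in size.

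The largest difference belonged to Ngfr. Its level was 112, 112 and 118 in Cap-L and 30.1, 25.9 and 30.0 in Cap-B. All Cap-L libraries lay far above all Cap-B libraries, a 3.91-fold lower level on the buccal side (log2 fold change -1.97 ± 0.057 (SE), adjusted p = 4.00e-15). Ntrk2, the receptor gene of BDNF, measured 83.0, 78.8 and 86.4 in Cap-L and 151, 153 and 152 in Cap-B. It was thus 1.87-fold higher on the buccal side, with no overlap (log2 fold change 0.90 ± 0.047 (SE), adjusted p = 1.72e-11). The 2 neurotrophin receptor genes therefore pointed to opposite sides of the same germ. Bdnf itself measured 3.97, 2.65 and 3.32 in Cap-L and 4.38, 3.98 and 3.62 in Cap-B. These libraries overlapped and the gene did not pass, with a 95% interval of -0.010 to 0.62 for the log2 fold change (adjusted p = 0.113). Ntf3 measured 10.6, 12.7 and 9.57 in Cap-L and 7.41, 6.87 and 8.06 in Cap-B, without overlap and lower on the buccal side (log2 fold change -0.54 ± 0.10 (SE), adjusted p = 4.09e-04).

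In the GDNF family, Gfra1 measured 11.9, 12.2 and 11.8 in Cap-L and 23.9, 25.7 and 27.9 in Cap-B. All buccal libraries lay above all lingual ones, and the fitted difference was 2.20-fold (log2 fold change 1.14 ± 0.070 (SE), adjusted p = 2.24e-10). Gfra2, the neurturin receptor gene, measured 84.5, 86.4 and 85.7 in Cap-L and 174, 177 and 182 in Cap-B, the highest level of this gene in any group. The difference was 2.11-fold (log2 fold change 1.08 ± 0.043 (SE), adjusted p = 4.04e-13). Gdnf measured 3.72, 4.68 and 3.89 in Cap-L and 6.64, 8.17 and 9.62 in Cap-B, so that ligand and co-receptor were both higher on the buccal side (log2 fold change 1.01 ± 0.13 (SE), adjusted p = 4.78e-06). Nrtn was near 1 normalized CPM, with 0.752, 1.03 and 0.813 in Cap-L and 1.45, 1.63 and 1.09 in Cap-B. The groups did not overlap and the gene passed (log2 fold change 0.68 ± 0.23 (SE), adjusted p = 0.0237), but DESeq2 gave an adjusted p of 0.0785 and 4 of the 6 fits without a library lost the call. Ret measured 3.97, 3.12 and 4.13 in Cap-L and 2.44, 2.55 and 2.57 in Cap-B, a small difference toward the lingual side (log2 fold change -0.53 ± 0.15 (SE), adjusted p = 0.00743). It fell below the fold limit without Cap-L library 1 or 3 (-0.48 and -0.45), as did Ntf3 without Cap-L library 2 or Cap-B library 2 (-0.42 and -0.49).

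Other cell types differed between the same groups. All 8 skeletal muscle markers and all 7 Schwann and glial markers were higher in Cap-B, where the Schwann and glial markers summed to 63.0–69.1 normalized CPM against 27.4–28.9 in Cap-L. Sox10, which defines the glial lineage, ran from 4.06 to 4.71 in Cap-L and from 12.2 to 12.9 in Cap-B. Of 8 neuron markers tested, 2 were higher and 1 lower in Cap-B. Of 7 epithelial markers, 5 were lower in Cap-B and none higher, with sums of 441–488 normalized CPM in Cap-L and 343–360 in Cap-B. Of 4 macrophage markers 1 was higher in Cap-B, and no endothelial or erythroid marker passed. Their part in the neurotrophic differences was not tested. In bulk tissue, fewer cells that express a gene and less RNA of that gene per cell cannot be told apart.

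At the bell stage the sides were compared again. The buccal part still held more Gdnf and Gfra1 and less Ngfr, but Ntrk2 and Bdnf were now higher on the lingual side. In Bell-L against Bell-B, 7 of the 9 genes passed, 4 higher in the buccal part and 3 higher in the lingual part, against 12.9% of the 21181 genes tested, which divide into 6% and 6.88%. The libraries of the sides did not overlap for 7 genes, as for 45.5% of all.

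Ntrk2 measured 345, 344 and 347 in Bell-L and 164, 166 and 160 in Bell-B. The lingual libraries were the highest of all 24 for this gene, and the buccal part was lower by 2.11-fold (log2 fold change -1.08 ± 0.031 (SE), adjusted p = 7.36e-29). Ngfr measured 119, 114 and 115 in Bell-L and 74.3, 68.2 and 70.4 in Bell-B, again lower on the buccal side without overlap (log2 fold change -0.70 ± 0.036 (SE), adjusted p = 3.29e-20). Of the neurotrophins, Bdnf measured 7.77, 7.92 and 7.41 in Bell-L and 6.20, 5.27 and 4.77 in Bell-B. It was higher on the lingual side without overlap (log2 fold change -0.50 ± 0.10 (SE), adjusted p = 6.24e-05), at the edge of the fold limit, and 4 of the 6 fits without a library gave a log2 fold change just short of it, the smallest being -0.42. Ntf3 measured 5.22, 6.02 and 6.05 in Bell-L and 6.30, 6.41 and 5.96 in Bell-B. The groups overlapped and the 95% interval of the log2 fold change was -0.092 to 0.31 (adjusted p = 0.431).

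Gdnf measured 3.77, 3.72 and 3.32 in Bell-L and 7.62, 7.41 and 7.29 in Bell-B. The buccal libraries were tightly grouped at 2.07 times the lingual level (log2 fold change 1.05 ± 0.10 (SE), adjusted p = 3.47e-11). Gfra1, encoding the receptor of GDNF, measured 12.0, 13.1 and 12.4 in Bell-L and 19.9, 21.5 and 18.0 in Bell-B. It was higher on the same side as its ligand (log2 fold change 0.66 ± 0.069 (SE), adjusted p = 1.07e-10). Gfra2 measured 118, 114 and 113 in Bell-L and 90.5, 91.6 and 87.0 in Bell-B, a difference that passed on p but was smaller than the fold limit (log2 fold change -0.36 ± 0.034 (SE), adjusted p = 1.06e-11). Its groups did not overlap, and lingual was the higher. Ret measured 2.82, 2.12 and 2.56 in Bell-L and 4.00, 3.74 and 3.81 in Bell-B, higher on the buccal side without overlap (log2 fold change 0.63 ± 0.14 (SE), adjusted p = 2.32e-04). Nrtn measured 0.914, 0.693 and 1.23 in Bell-L and 1.94, 1.21 and 1.56 in Bell-B. A Bell-L library lay above the lowest Bell-B library and the call (log2 fold change 0.72 ± 0.23 (SE), adjusted p = 0.0101) was lost with DESeq2 (adjusted p = 0.0511). When all 24 libraries shared 1 estimate of the spread, the side differences of Ret and Nrtn passed at neither stage, with adjusted p from 0.233 to 0.261 in edgeR. At this stage 8 of 8 skeletal muscle markers, 5 of 7 Schwann and glial markers and 5 of 8 neuron markers were higher in Bell-B, with Schwann and glial sums of 74.7–77.6 against 36.4–39.5 normalized CPM. Lower in Bell-B were 4 of 7 epithelial markers, with sums of 506–523 against 731–762, and 2 of 4 macrophage markers, with sums of 82.3–85.0 against 126–132. No endothelial or erythroid marker passed, and the part of all these in the neurotrophic results was not tested.

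After 2 days in culture the side differences of the cap-stage parts were smaller for several genes and lay in the same direction as in fresh tissue for those that passed. In Cap-L+2D against Cap-B+2D, 4 of the 9 genes passed, 2 higher in the buccal part and 2 in the lingual part, against 25.1% of the 21195 genes tested, or 12.5% in each direction. The libraries did not overlap for 7 genes, as for 59.1% of all. Ngfr measured 136, 128 and 133 in Cap-L+2D and 67.0, 70.0 and 74.0 in Cap-B+2D. Ntrk2 measured 159, 159 and 162 in Cap-L+2D and 290, 296 and 297 in Cap-B+2D. These receptors kept opposite sides, Ngfr lingual (log2 fold change -0.92 ± 0.043 (SE), adjusted p = 1.38e-15) and Ntrk2 buccal (log2 fold change 0.87 ± 0.036 (SE), adjusted p = 9.51e-17). Gfra2 measured 64.1, 57.3 and 64.5 in Cap-L+2D and 113, 118 and 118 in Cap-B+2D, higher on the buccal side (log2 fold change 0.90 ± 0.045 (SE), adjusted p = 5.67e-15). Ntf3 measured 16.7, 17.2 and 15.5 in Cap-L+2D and 8.87, 8.26 and 8.26 in Cap-B+2D. Its lingual level was 1.95 times the buccal one (log2 fold change -0.96 ± 0.075 (SE), adjusted p = 3.74e-11).

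The other 5 genes did not pass both limits in culture. Gfra1 measured 31.0, 31.0 and 32.0 in Cap-L+2D and 43.6, 43.0 and 43.8 in Cap-B+2D, which is a log2 fold change of 0.46 (adjusted p = 6.09e-09), short of the fold limit. Gdnf, with 10.0, 9.38 and 9.04 in Cap-L+2D and 13.3, 13.8 and 11.3 in Cap-B+2D, also stood higher in every buccal library but at a log2 fold change of 0.43 (adjusted p = 8.86e-05). Bdnf, with 14.7, 13.3 and 13.0 in Cap-L+2D and 15.9, 15.0 and 15.4 in Cap-B+2D, differed by 0.17 on the log2 scale (adjusted p = 0.0356). Without the fold limit, these 3 genes would bring the count to 7, and 11569 of the 21195 genes tested would pass. Ret measured 3.98, 3.41 and 3.95 in Cap-L+2D and 3.38, 3.97 and 2.98 in Cap-B+2D. Nrtn measured 0.986, 1.69 and 0.940 in Cap-L+2D and 0.687, 1.36 and 1.33 in Cap-B+2D. Both overlapped between the sides, with 95% intervals of -0.42 to 0.12 for Ret and -0.66 to 0.42 for Nrtn. In the cultured parts all 8 skeletal muscle markers, 7 of 9 neuron markers and 3 of 4 Schwann and glial markers tested were higher in Cap-B+2D, where 1 glial marker was lower. Lower in Cap-B+2D were 6 of 7 epithelial, 4 of 5 endothelial, 2 of 4 macrophage and 2 of 3 erythroid markers tested, and the epithelial markers summed to 32.7–34.5 normalized CPM there against 396–428 in Cap-L+2D. Their part in these results was not tested.

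**Figure D3:**
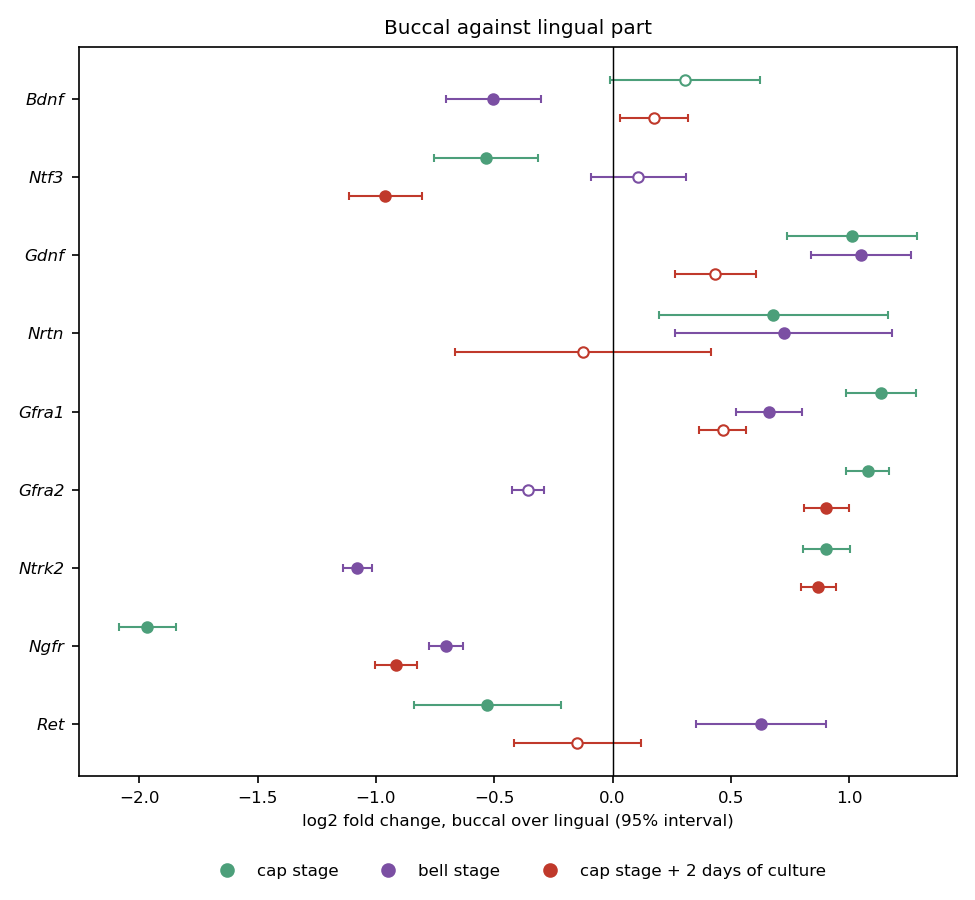
Log2 fold change of buccal over lingual (horizontal axis) for the 9 genes at the cap stage, the bell stage and after 2 days of culture. The 95% intervals were derived from edgeR's F test. Filled points passed both limits. Gdnf and Gfra1 lie to the right of 0 at all 3 conditions and Ngfr to the left at all 3. Ntrk2, Gfra2, Bdnf, Ntf3 and Ret change sides at the bell stage, though some intervals of Bdnf, Ntf3 and Ret include 0.

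Whether the side difference itself changed with stage was tested as an interaction over the 12 fresh libraries of the parts. It passed for 7 of the 9 genes, 3 toward the buccal side and 4 toward the lingual side, against 32.5% of 21931 genes tested (14.5% and 18%), with an adjusted p under 0.05 and no limit on the fold. Ntrk2 had the largest change, from higher buccal to higher lingual (log2 -1.99 ± 0.055 (SE), adjusted p = 5.70e-22). Gfra2 changed in the same direction (-1.44 ± 0.054, adjusted p = 6.88e-19), as did Bdnf (-0.82, adjusted p = 7.38e-04) and Gfra1 (-0.48, adjusted p = 4.36e-04), whose buccal excess shrank. Ngfr moved the opposite way, its lingual excess shrinking (1.25 ± 0.068, adjusted p = 3.72e-15). The same sign was seen for Ret (1.15, adjusted p = 3.58e-05) and Ntf3 (0.64, adjusted p = 9.28e-04). The Gdnf difference was close to equal at both stages, with a 95% interval of the change of -0.32 to 0.38, and that of Nrtn was less well determined, at -0.66 to 0.74. With all 24 libraries in the fit the changes of Gfra1 and Ret no longer passed (adjusted p of 0.180 and 0.0983).

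Stage was compared within each part and in undivided mesenchyme. In the lingual part Ntrk2 and Bdnf rose together from the cap to the bell stage, and Ntf3 and Ret fell. In the buccal part Ngfr and Ret rose and Gfra2 fell. The lingual comparison called 4 of the 9 genes, 2 up and 2 down, against 20% of 21425 genes tested (14.2% up and 5.78% down). The buccal comparison called 3, with 2 up and 1 down, against 18.7% of 21992 genes (12% up and 6.73% down). The stages did not overlap for 5 genes lingually and for 7 buccally, as for 55.9% and 55.4% of all genes. The cap-stage parts in these comparisons are the same libraries as in the comparisons of sides and of culture.

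Lingual Ntrk2 rose 4.20-fold, from a mean of 82.7 to 345 normalized CPM (log2 fold change 2.07 ± 0.044 (SE), adjusted p = 3.28e-22). Its ligand gene Bdnf rose 2.37-fold in the same libraries, from a mean of 3.31 to 7.70 (log2 fold change 1.24 ± 0.12 (SE), adjusted p = 2.64e-09). Ntf3 fell in the lingual part, from a mean of 10.9 to 5.76 (log2 fold change -0.92 ± 0.10 (SE), adjusted p = 4.30e-08). Ret fell from a mean of 3.74 to 2.50 (log2 fold change -0.56 ± 0.15 (SE), adjusted p = 0.00244), and without Cap-L library 3 or Bell-L library 2 its log2 fold change was -0.49 and -0.46. Lingual Ngfr hardly differed between stages, with a 95% interval of -0.056 to 0.12 on the log2 scale, and Gfra1 had an interval of -0.071 to 0.21. Gfra2 was higher at the bell stage without overlap but under the fold limit (0.43, adjusted p = 1.94e-08). For Gdnf and Nrtn the libraries of the stages overlapped, with intervals of -0.44 to 0.058 and -0.44 to 0.70.

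In the buccal part Ngfr rose 2.46-fold, from a mean of 28.7 to 71.0 normalized CPM, without overlap (log2 fold change 1.30 ± 0.052 (SE), adjusted p = 2.86e-20). Gfra2 fell from a mean of 177 to 89.7 (log2 fold change -0.99 ± 0.035 (SE), adjusted p = 1.08e-21), whereas lingual Gfra2 did not fall. Ret rose from a mean of 2.52 to 3.85 (log2 fold change 0.60 ± 0.14 (SE), adjusted p = 4.51e-04), opposite to its direction in the lingual part; both Ret stage differences were lost when all 24 libraries were fitted together (adjusted p of 0.189 and 0.186). Ntrk2 differed in the buccal part by a log2 fold change of 0.10 (adjusted p = 0.0148). Bdnf (0.44), Ntf3 (-0.27) and Gfra1 (-0.40) likewise had adjusted p-values under 0.05 with changes below the fold limit. Without that limit 7 of the 9 genes would count, and 10557 of the 21992 genes tested. Gdnf and Nrtn overlapped between the stages, with intervals of -0.36 to 0.065 and -0.29 to 0.65. All 8 skeletal muscle markers rose with stage in both parts. Of the neuron markers 1 rose and 4 fell among 8 tested in the lingual part, and 2 rose and 4 fell among 9 in the buccal part. Macrophage markers rose in 4 of 4 cases in the lingual and 3 of 4 in the buccal part, erythroid markers in 4 of 4 and 3 of 4, and epithelial markers in 4 of 7 and 5 of 7, with 1 falling in the buccal part. Of the 7 Schwann and glial markers 2 rose in the lingual and 1 in the buccal part, and of the 5 endothelial markers 1 rose in the lingual part. Their part in the stage differences was not tested.

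In undivided mesenchyme, Bdnf, Gfra2 and Ntrk2 were higher in Bell-W than in Cap-W, and Ntf3 and Ret were lower. This is 5 of the 9 genes, 3 up and 2 down, against 14.5% of 20940 genes tested (10.3% up and 4.21% down). The same 5 genes did not overlap between the stages, as for 36.8% of all. Ntrk2 measured 43.3, 59.3 and 48.0 in Cap-W and 159, 181 and 195 in Bell-W, a 3.51-fold rise (log2 fold change 1.81 ± 0.15 (SE), adjusted p = 5.76e-04). Ntf3 measured 16.9, 10.5 and 11.5 in Cap-W and 3.16, 4.02 and 3.94 in Bell-W. Every bell library lay well below every cap library (log2 fold change -1.81 ± 0.23 (SE), adjusted p = 0.00217). Gfra2 measured 38.4, 37.6 and 44.5 in Cap-W and 64.1, 62.0 and 66.3 in Bell-W, higher at the bell stage without overlap (log2 fold change 0.66 ± 0.11 (SE), adjusted p = 0.00660). Bdnf measured 2.28, 2.50 and 2.95 in Cap-W and 4.62, 5.53 and 5.33 in Bell-W, also without overlap (log2 fold change 0.98 ± 0.23 (SE), adjusted p = 0.0243).

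Ret measured 5.35, 16.5 and 9.49 in Cap-W and 1.85, 1.55 and 4.04 in Bell-W, and its fall (log2 fold change -2.09 ± 0.51 (SE), adjusted p = 0.0308) came with a wide spread among the Cap-W libraries. Cap-W library 2 held the highest Ret level of the 24 libraries, and the highest Bell-W value was in library 3, the one with high neuron and epithelial markers. The calls of Bdnf and Ret were each lost in 4 of the 6 fits in which a library was dropped. Without Cap-W library 2, the adjusted p was 0.0896 for Bdnf and 0.0917 for Ret, without Cap-W library 3 it was 0.0672 and 0.0744, without Bell-W library 1 it was 0.0505 and 0.103, and without Bell-W library 2 it was 0.104 and 0.111. Each of these fits called 3 of the 9 genes, and the fit without Bell-W library 3 called 5. Ngfr measured 74.6, 82.5 and 75.1 in Cap-W and 76.8, 96.4 and 104 in Bell-W, and did not pass (95% interval -0.071 to 0.55). Gfra1 measured 8.96, 6.82 and 7.43 in Cap-W and 6.12, 11.2 and 12.0 in Bell-W. Gdnf measured 3.84, 5.93 and 4.16 in Cap-W and 4.93, 5.07 and 5.75 in Bell-W. Both overlapped between the stages, with intervals of -0.30 to 0.95 and -0.40 to 0.72. Nrtn measured 1.89, 0.626 and 0.627 in Cap-W and 0.616, 0.963 and 1.29 in Bell-W, and its interval of -1.34 to 1.14 allows a change in either direction. All 5 endothelial, 4 macrophage and 4 erythroid markers and 2 of 7 epithelial markers were higher in Bell-W, 1 of 7 neuron markers tested was lower, and no Schwann, glial or skeletal muscle marker passed. Their part in these results was not tested.

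The undivided libraries did not always lie between the 2 parts of the same stage. At the cap stage the 3 Cap-W libraries were below all 6 libraries of the parts for Gfra1, Gfra2 and Ntrk2, as were 17% of the 21215 genes compared, and above all 6 for Ret, as were 12.4%. At the bell stage the Bell-W libraries were below all 6 libraries of the parts for Ntf3, Gfra1 and Gfra2, as were 9.46% of 21887 genes, and above for none of the 9, against 9.73%. Some marker sums also lay outside the parts. Endothelial markers summed to 162–177 normalized CPM in Cap-W, against 372–395 in Cap-L and 338–351 in Cap-B. Skeletal muscle markers summed to 7.50–14.3 in Bell-W, against 99.1–106 in Bell-L and 737–745 in Bell-B. Dental mesenchyme sums of the undivided libraries overlapped those of the parts. The part of cell makeup in these results was not tested.

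Culture was compared with the fresh cap-stage part of the same side. The cultured parts were also 2 days further from dissection. Culture and elapsed time therefore cannot be told apart, here and in the other comparisons of fresh with cultured parts. Bdnf, Gdnf, Gfra1 and Ntrk2 rose in both parts, which are the genes of BDNF and its receptor TrkB and of GDNF and its receptor GFRa1. Ntf3 rose in the lingual part, Ngfr rose in the buccal part, and Gfra2 fell in the buccal part. In the lingual part 5 of the 9 genes rose and none fell by both limits, against 35.4% of 21425 genes called (19.6% up and 15.9% down). In the buccal part 5 rose and 1 fell, against 34.5% of 21992 genes called (17.9% up and 16.6% down). Fresh and cultured libraries did not overlap for 7 genes lingually and 8 buccally, as for 67.5% and 69% of all genes.

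**Figure D4:**
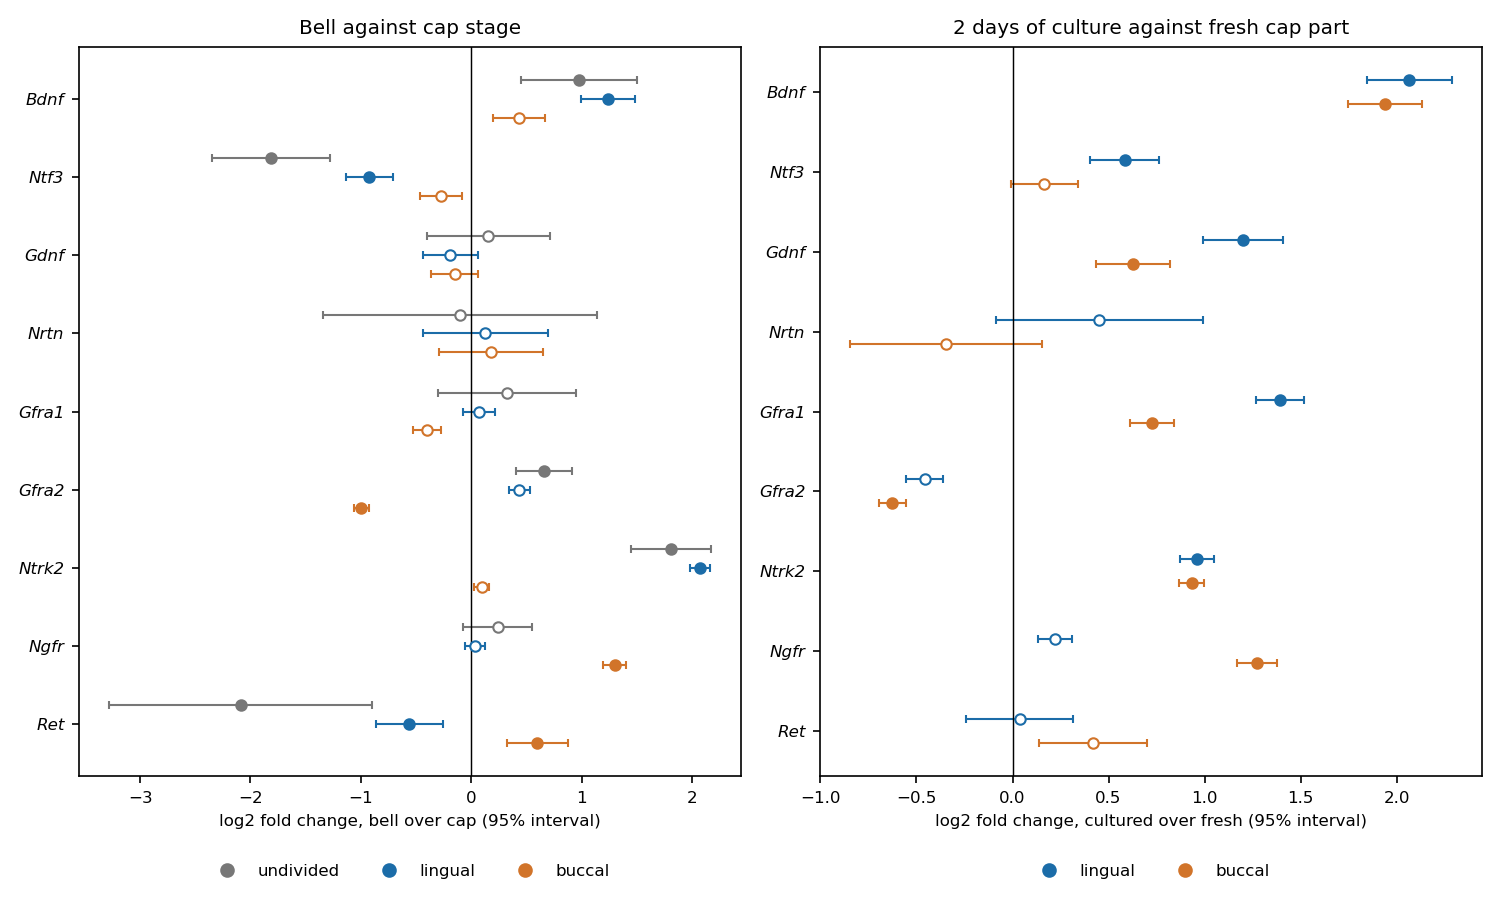
Log2 fold change of the 9 genes with 95% intervals derived from edgeR's F test. Bell over cap stage is on the left and cultured over fresh cap-stage part on the right. Filled points passed both limits; the right panel shows Bdnf near 2 in both parts and Ngfr far to the right only in the buccal part, and the left panel shows Ntrk2 near 2 in the undivided and lingual mesenchyme and close to 0 in the buccal part.

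Bdnf rose most, 4.19-fold in the lingual part (log2 fold change 2.07 ± 0.11 (SE), adjusted p = 1.00e-14) and 3.83-fold in the buccal part (log2 fold change 1.94 ± 0.095 (SE), adjusted p = 2.14e-18). The 6 cultured libraries, listed above, were the 6 highest of the 24 for Bdnf. Ntrk2 rose 1.95-fold in the lingual part (log2 fold change 0.96 ± 0.044 (SE), adjusted p = 6.09e-16) and 1.91-fold in the buccal part (log2 fold change 0.93 ± 0.032 (SE), adjusted p = 9.05e-23). Gdnf rose 2.30-fold in the lingual part (log2 fold change 1.20 ± 0.10 (SE), adjusted p = 1.43e-10) and 1.54-fold in the buccal part (log2 fold change 0.63 ± 0.10 (SE), adjusted p = 7.13e-07). Gfra1 rose 2.63-fold in the lingual part (log2 fold change 1.39 ± 0.062 (SE), adjusted p = 3.48e-16) and 1.66-fold in the buccal part (log2 fold change 0.73 ± 0.056 (SE), adjusted p = 3.12e-13). For these 4 genes no cultured library overlapped the fresh libraries of the same part.

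Ngfr rose 2.42-fold in the buccal part (log2 fold change 1.27 ± 0.052 (SE), adjusted p = 1.43e-20). In the lingual part its log2 fold change was 0.22 (adjusted p = 8.09e-05), under the fold limit. Ntf3 rose 1.50-fold in the lingual part (log2 fold change 0.58 ± 0.087 (SE), adjusted p = 2.11e-06), with a log2 fold change of 0.49 without Cap-L library 3. In the buccal part Ntf3 had a log2 fold change of 0.17 (adjusted p = 0.0891). Gfra2 fell 1.54-fold in the buccal part (log2 fold change -0.63 ± 0.034 (SE), adjusted p = 4.52e-17), and its lingual log2 fold change of -0.46 (adjusted p = 6.04e-09) was just short of the limit. Ret did not pass in either part, with log2 fold changes of 0.037 lingual and 0.42 buccal, the second with an adjusted p of 0.00791. Nrtn had intervals of -0.085 to 0.99 and -0.85 to 0.15 in the lingual and buccal parts.

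Markers of other cell types moved with culture in both directions. In the lingual part 5 of 7 Schwann and glial markers fell with culture and none rose, and in the buccal part 6 fell and 1 rose. Sox10 was at 0.105–0.304 normalized CPM in Cap-L+2D and at 0.174–0.348 in Cap-B+2D, near the floor of detection. The summed Schwann and glial level was 17.0–18.4 normalized CPM in Cap-L+2D and 96.8–100 in Cap-B+2D, the latter mostly Erbb3, which was at 89.6–93.4 there. Of the neuron markers 3 rose and 3 fell among 8 tested in the lingual part, and 4 rose and 2 fell among 9 in the buccal part. All 8 skeletal muscle markers rose in both parts, as did 4 of 4 macrophage markers in the lingual and 3 of 4 in the buccal part. All 4 erythroid markers fell in both parts, endothelial markers fell in 2 of 5 cases in the lingual and 5 of 5 in the buccal part, and of the 7 epithelial markers 1 rose and 3 fell in the lingual part and all fell in the buccal part. Their part in the culture differences was not tested.

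The stretch of 250 bases before the transcription start of the Ensembl canonical transcript (GRCm39) is shown for the 4 genes that rose in both cultured parts, because they moved together. Letters in capitals mark TGACG, the core of the cAMP response element, TGANTCA, the AP-1 element, and TATAAA, the TATA box, searched on both strands. No exon in the annotation behind the counts lies inside these windows. Bdnf and Ntrk2 have other, upstream starts as well, and counts per gene do not show which start was used.
Bdnf, chr2:109523658-109523907, plus strand: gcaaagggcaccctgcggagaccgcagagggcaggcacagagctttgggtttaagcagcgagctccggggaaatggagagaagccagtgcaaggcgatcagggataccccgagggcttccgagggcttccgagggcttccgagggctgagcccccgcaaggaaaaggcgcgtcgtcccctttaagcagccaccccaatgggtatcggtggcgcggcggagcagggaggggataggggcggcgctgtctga
Gdnf, chr15:7840077-7840326, plus strand: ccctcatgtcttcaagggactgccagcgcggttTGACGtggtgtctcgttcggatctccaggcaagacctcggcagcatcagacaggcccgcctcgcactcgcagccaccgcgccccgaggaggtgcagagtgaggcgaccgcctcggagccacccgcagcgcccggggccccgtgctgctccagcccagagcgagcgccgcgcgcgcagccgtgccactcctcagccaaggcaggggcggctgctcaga
Gfra1, chr19:58444347-58444596, minus strand: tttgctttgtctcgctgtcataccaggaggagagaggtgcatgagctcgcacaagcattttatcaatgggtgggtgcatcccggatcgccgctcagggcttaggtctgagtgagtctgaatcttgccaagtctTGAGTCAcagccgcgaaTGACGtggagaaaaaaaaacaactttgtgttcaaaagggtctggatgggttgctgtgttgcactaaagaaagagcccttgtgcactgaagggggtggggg
Ntrk2, chr13:58954955-58955204, plus strand: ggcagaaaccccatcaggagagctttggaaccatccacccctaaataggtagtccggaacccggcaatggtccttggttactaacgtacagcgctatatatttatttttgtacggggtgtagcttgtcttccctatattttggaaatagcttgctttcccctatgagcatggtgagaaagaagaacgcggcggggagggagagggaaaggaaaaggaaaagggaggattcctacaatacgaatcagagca

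TGACG was found in Gdnf, 217 to 213 bases before the start, and in Gfra1, 100 to 96 bases before it, and in 18% of the 21770 promoters of the same length. TGANTCA was found in Gfra1 as TGAGTCA, 117 to 111 bases before the start, and in 6.17% of all promoters. TATAAA was in none of these 4 windows and in 11.9% of all. The E-box letters CANNTG, not capitalized, were in none of the 4 windows, in 5 of the 9 genes (Ntf3, Nrtn, Gfra2, Ngfr and Ret) and in 64.8% of all promoters. The windows of Bdnf and Gdnf were rich in G and C, at 65.6% and 71.2%, against 51.2% in Gfra1, 47.6% in Ntrk2 and a median of 53.2%. These are matches of letters and nothing more.

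Whether the side difference changed with culture was tested over the 12 libraries of fresh and cultured cap-stage parts. It passed for 5 of the 9 genes, 1 toward the buccal side and 4 toward the lingual side, against 35.5% of 22098 genes (16% and 19.5%). Ngfr lost part of its lingual excess (1.05 ± 0.072 (SE), adjusted p = 5.73e-13). Gfra1 (-0.67 ± 0.083, adjusted p = 1.11e-07) and Gdnf (-0.58 ± 0.16, adjusted p = 0.00460) lost part of their buccal excess. The lingual excess of Ntf3 grew (-0.43, adjusted p = 0.0122). The change of Gfra2 was small (-0.18, adjusted p = 0.0284) and did not pass in 5 of 12 fits without a library. With all 24 libraries in the fit only Gfra1 and Ngfr passed, and without Cap-B library 3 only 3 genes did, Gdnf, Gfra1 and Ngfr. For Ntrk2 the side difference was close to equal in fresh and cultured parts, with a 95% interval of the change of -0.15 to 0.079. The intervals of Bdnf, Nrtn and Ret, which did not pass after adjustment over all genes, were -0.46 to 0.18, -1.57 to -0.039 and -0.027 to 0.78.

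Over the 8 comparisons of a pair of groups, 42 of the 72 tests of the 9 genes passed both limits. The share of all genes tested that passed them ran from 12.9% to 35.4% over these comparisons. These comparisons share libraries, since Cap-L and Cap-B each enter a comparison of sides, of stages and of culture.

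Other genes of the same pathways, taken as a list of 26, were counted in the same fits. They are further neurotrophin ligands, receptors and adaptors, further GDNF family ligands, co-receptors and adaptors, and other neurotrophic factors such as midkine and pleiotrophin. Of these, 25 were tested, and Cntf was not. Between the sides of the cap stage 6 were higher buccal and 2 higher lingual, against 10.4% and 7.1% of all genes tested, led by the Ret adaptor genes Dok6 (log2 2.08) and Dok5 (1.73), by Ntrk3, which encodes the neurotrophin-3 receptor TrkC (1.56), and by Gfra3, the artemin co-receptor gene (-1.09). At the bell stage 5 were higher buccal and 2 higher lingual, against 6% and 6.88%, with Dok5 (1.59), Ntrk3 (1.12), Gfra3 (-0.93) and the ligand gene Artn (0.89) in the lead. In culture 4 were higher buccal and 3 higher lingual, against 12.5% in each direction, among them Gfra3 (-4.19), Ntrk3 (1.79) and Dok5 (1.72).

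With stage, the lingual part called 3 of the 25 up and 3 down, against 14.2% and 5.78% of all genes tested. The buccal part called 3 up and 4 down, against 12% and 6.73%, and undivided mesenchyme 4 up and 1 down, against 10.3% and 4.21%. Ntrk3 rose in the 3 comparisons (log2 2.13 lingual, 1.70 buccal and 4.47 undivided). Ntf3 and Ntrk3 thus moved apart with stage in the lingual and the undivided mesenchyme, where the ligand gene fell and the gene of its preferred receptor rose. With culture, 8 of the 25 rose and 4 fell in the lingual part, against 19.6% and 15.9% of all genes, and 7 rose and 7 fell in the buccal part, against 17.9% and 16.6%. Ntrk3 rose in both (2.02 and 2.25). Among the largest other changes were the fall of Ntf5, a further TrkB ligand gene (-1.74), and of Dok4 (-1.41) and the rise of Sorcs2, which encodes a partner of p75 (1.60), in the lingual part, and the fall of Gfra3 (-2.75) and Dok6 (-2.17) in the buccal part. Each named value passed the test with an adjusted p of at most 2.23e-04 in edgeR. The median log2 fold change over all genes tested ran from -0.033 to 0.0050 over the 10 comparisons.

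In the annotation, on the GRCm39 build, Bdnf (ENSMUSG00000048482) lies at chr2:109505045-109557352 on the plus strand, Ntf3 (ENSMUSG00000049107) at chr6:126078375-126143873 on the minus strand, Gdnf (ENSMUSG00000022144) at chr15:7840327-7867056 on the plus strand and Nrtn (ENSMUSG00000039481) at chr17:57058325-57064530 on the minus strand. The receptor gene Ntrk2 (ENSMUSG00000055254) lies at chr13:58954383-59281784 on the plus strand, Ngfr (ENSMUSG00000000120) at chr11:95459644-95478561 on the minus strand, Gfra1 (ENSMUSG00000025089) at chr19:58224036-58444341 on the minus strand, Gfra2 (ENSMUSG00000022103) at chr14:71127560-71217278 on the plus strand and Ret (ENSMUSG00000030110) at chr6:118128706-118174679 on the minus strand. Reads were counted over all exons of a gene, untranslated parts included. Of the exon bases of Bdnf, 14.4% overlap those of Gm45346, and of Gfra1 7.60% overlap Gm16277. Counting ignored the strand and left out reads that overlap more than 1 gene, so reads from these stretches are missing from both levels.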

How the data were processed

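The authors deposited raw read counts per gene with the union exon length of each gene; per the file header they were made with featureCounts 2.0.0 on Ensembl release 107 (GRCm39), without regard to strand and without read pairs that map to several places or genes. The submitters' notes name FastQC 0.12.1, Trimmomatic 0.39, Bowtie 1.2.3, Subread 2.0.3 and DESeq2 1.40.2, while the study's methods name Cutadapt and STAR, and the labels and methods name different library kits (SMARTER and TruSeq Stranded). Group and replicate number were taken from the sample titles. Symbols were matched by gene identifier to GENCODE vM39.

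Counts were tested in R 4.3.3 with edgeR 4.0.16 (TMM, filterByExpr, quasi-likelihood F test), with Benjamini-Hochberg adjustment over all genes tested. A pair of groups was fitted alone for sides and for undivided mesenchyme, the 9 libraries of a part together for stage and culture, and 12 libraries for interactions. Levels are CPM with TMM factors over 24 libraries. The exact permutation test of 3 against 3 libraries cannot go below p = 0.1 and was not used. The script was tested on simulated data with 200 genes changed by 1 on the log2 scale: it called 199 of them among 20653 genes for Cap-L against Cap-B (with 1 false call), 194 among 21425 for Cap-L against Cap-L+2D (2 false), 82 among 20940 for Cap-W against Bell-W (10 false) and 185 among 21931 for the interaction of side with stage (12 false).

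The 9 genes, the list of 26 related genes and the 8 marker lists were chosen with earlier results of these data known. All 9 genes are named in every comparison, related genes only where called and among the 4 with the largest change; some that meet this rule are not reported here. Alternatives were DESeq2 1.42.0, RLE scaling, dropping the 100 most abundant genes, no count filter or a minimum of 10 counts per library, a joint fit of the 24 libraries, a block for the replicate number, calls without the fold limit or at an adjusted p under 0.01, and dropping each library. Replicate numbers were checked as pairs by correlating the deviations of same-numbered libraries from their group means; no comparison had every correlation above 0.1, and the block was used only in an alternative fit. Promoters were read from the GRCm39 genome with GENCODE vM39 starts.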

Additional observations from a re-analysis of the deposited data

Results flagged for a closer look

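The side difference (buccal over lingual, log2) changed between the cap and the bell stage for 7 of the 9 genes. The test was an interaction in edgeR at an adjusted p under 0.05, which 32.5% of all genes tested passed. The change was -0.82 for Bdnf, 0.64 for Ntf3, -0.48 for Gfra1, -1.44 for Gfra2, -1.99 for Ntrk2, 1.25 for Ngfr and 1.15 for Ret. The side differences of Ntrk2 and Ret passed both limits at each stage, in opposite directions. With all 24 libraries in 1 fit, that of Ret passed at neither stage (adjusted p of 0.233 and 0.241 in edgeR). The changes of Ret and Gfra1 did not pass in that fit either (adjusted p of 0.0983 and 0.180).

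The side difference also changed with culture for 5 genes by the same test, which 35.5% of all genes tested passed. The change was -0.43 for Ntf3, -0.58 for Gdnf, -0.67 for Gfra1, -0.18 for Gfra2 and 1.05 for Ngfr. With all 24 libraries in 1 fit, only the changes of Gfra1 and Ngfr passed. Both interactions use the same Cap-L and Cap-B libraries.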

How the results depend on the processing

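Nrtn had the fewest counts of the 9 genes, 14 to 59 in a library. The number of neurotrophic genes called between Cap-W and Bell-W was 5, and it was 3 at an adjusted p under 0.01 and 3 to 5 without a library. Without the fold limit the count went from 4 to 7 for the cultured sides and from 3 to 7 for the stages of the buccal part. The counts among all genes went from 5315 to 11569 and from 4114 to 10557. For the interaction of side with culture it went from 5 to 2 with all 24 libraries in 1 fit, to 3 at an adjusted p under 0.01, and ran from 3 to 6 without a library. The other counts of neurotrophic genes stayed within 1.5 times their value under every alternative run.

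Signs changed only for genes that were not called. Ranges here are over the main fit and all alternatives. The log2 fold change of Nrtn ran from -0.39 to 0.59 between Cap-W and Bell-W and from -0.31 to 0.19 between the cultured sides. It ran from -0.12 to 0.31 between Cap-L and Bell-L and from -0.15 to 0.28 for the interaction of side with stage. The log2 fold change of Ret between Cap-L and Cap-L+2D ran from -0.094 to 0.11. That of Gdnf for the interaction of side with stage ran from -0.077 to 0.19, and that of Bdnf for the interaction of side with culture from -0.29 to 0.017. The cause was not tested.

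The replicate numbers were not taken to pair samples. Between Cap-W and Bell-W the deviations of same-numbered libraries correlated at 0.121, 0.0806 and 0.126, and between Cap-B and Bell-B at 0.0914, 0.266 and 0.205. In both comparisons every bell-stage library correlated best with the cap-stage library of its own number. In a fit with the replicate block, the number called between Cap-W and Bell-W went from 5 to 4. There Bdnf lost its call (adjusted p = 0.0550 in edgeR), and Nrtn turned to 0.013. No other call of a neurotrophic gene changed with the block. Among all genes, the count called between Cap-W and Bell-W was 3037, with 5887 in the fit of all 24 libraries, 1579 at an adjusted p under 0.01 and 1758 to 3057 without a library. In that fit of all libraries the interactions of side with stage and with culture fell from 7137 to 2581 and from 7842 to 4048. Of the 756 results for single genes without a library, 704 kept their direction and side of the threshold, 31 lost a call, 5 gained one and 16 changed sign; of the 792 under other settings, the numbers were 758, 21, 12 and 1.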

Other observations

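The genes whose group means most resembled those of a neurotrophic gene were sought by Pearson's r over the 8 group means of log2 CPM. This is a description without a test. Candidates had a range of group means at least 0.5 times that of the neurotrophic gene. They also had a mean log2 CPM of at least 2, which Nrtn itself, at 0.670, did not reach. The groups share tissue of origin and libraries differ in cell makeup, so that many genes reach high values. Gfra1 was most like Tspan9 (r = 0.988) and Igdcc4 (0.987), Bdnf like Ahrr (0.986) and Pttg1ip (0.984), and Ntrk2 like Myo7a (0.975) and Vav3 (0.952). Ngfr was most like Maf (0.969) and Fgf12 (0.957), Gdnf like Bcas3 and Tmem132c (0.96 each), and Ntf3 like Nfia (0.954) and Midn (0.935). For Gfra2 the value was 0.928 (Ddah1), for Ret the values were 0.917 (Pcyt1b) and 0.898 (Spsb4), and for Nrtn 0.903 (Vash1) and 0.889 (Ndst2).

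Among the 9 genes themselves, the pair with the highest r over the 8 group means was Gdnf and Gfra1 (0.905), a ligand gene and the gene of its co-receptor. Bdnf and Ntrk2 had 0.749, and Ntf3 and Bdnf 0.0926. Ntrk2 and Ret had the lowest value (-0.763), and Nrtn and Gfra2, the other ligand and co-receptor pair, had 0.397.

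The ratio of Ntf3 to Bdnf per kilobase of exon had a median of 15.3 in Cap-W, 10.5 in Cap-L and 6.26 in Cap-B, against 2.64 in Bell-W, 2.76 in Bell-L, 4.41 in Bell-B, 4.32 in Cap-L+2D and 2.00 in Cap-B+2D. Ntf3 was the higher of these neurotrophin genes in all 24 libraries on that scale, with merged exon lengths of 1714 bases for Ntf3 and 6217 for Bdnf. On normalized CPM without the length, Bdnf had the higher mean in Cap-B+2D (15.4 against 8.47), Bell-L (7.70 against 5.76) and Bell-W (5.16 against 3.71). Ntf3 had the higher mean in all other groups.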
